A study of Homo sapiens with 3 samples.

Results

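The p53 target genes described here are a named list of 34 human genes, given as targets of the tumour suppressor p53. They were taken by symbol from a total of 17556 genes with a probe on the array. Whether each responds directly to p53 was not tested. All 34 had a probe, on 37 probes in all, and 33 were detected; TP53INP1, which encodes a stress protein that promotes apoptosis and autophagy, was not well above background on any array. They were measured in HSC-3, an established cell line of human tongue squamous carcinoma, in 3 groups of 1 array each. 1 culture was not transfected, 1 received a plasmid expressing green fluorescent protein (GFP), and 1 received a plasmid expressing full-length DKK3, a secreted Dickkopf protein, with an HA tag. Cells of all groups were grown in medium with 10% serum, and the RNA of the transfected cells was taken 24 hours after transfection. A treatment label also mentions C2C12, a mouse myoblast line, but every title, description and source points to the human line. The labels do not state the transfected share of the cells, and each array averages over all cells of its culture, so a small difference in every cell and a larger one in some of them cannot be told apart.

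p53 is a transcription factor that is stabilised by DNA damage and other stresses and binds a pair of short palindromic sites near its target genes. Its targets include inhibitors that shut it off again, proteins that halt the cell cycle, proteins that trigger or restrain apoptosis, and proteins of DNA repair and metabolism. Many of these genes also answer to other regulators.

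Each array held 24454 usable gene probes, of which 17213 to 18000 were brighter than the mean plus 2 SD of the blank spots and were counted as detected. Of the 37 member probes, 36 were detected on all 3 arrays. The probe of DKK3 read 539 intensity units in untransfected cells, 749 with GFP and 64330 with DKK3, the last being the array labelled so. All 8 markers of squamous epithelium were detected, with KRT5 at 16550 units untransfected, 16710 with GFP and 12230 with DKK3. SFN, 1 of these 8 markers, is also a member of the p53 target list. Of the markers of other cell types with a probe, 5 of 6 of skeletal muscle, 3 of 4 of leukocytes, 1 of 4 of fibroblasts and 1 of 2 of endothelium were detected on at least 1 array, among them DES (91.1 to 106 units), CD68 (277 to 350) and a probe of DCN (151 to 170), while MYF5, PTPRC, COL1A2, COL3A1, PDGFRA and CDH5 were on none. What these signals stem from was not tested. Values below are normalized log2 intensities and their differences between 2 arrays. With 1 array a group no difference has a replicate error or a test, so differences are set against the spread of all genes: a robust SD of 0.087 for GFP minus untransfected, 0.082 for DKK3 minus untransfected and 0.086 for DKK3 minus GFP. Different probes of the same gene differed by a median of 0.093, 0.096 and 0.087 in that order, and by 0.29, 0.33 and 0.27 at the 90th percentile. A gene was called higher or lower where its difference reached 0.32 log2 units in size, a rule that describes these arrays.

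On the transfected arrays a few p53 target genes were higher than in untransfected cells, and most lay close to 0. GFP minus untransfected had 5 of 33 members called higher (GADD45A, BBC3, MDM4, CDKN1A and PHLDA3), where 2.29% of 13693 genes were called higher, and 0 lower, where 1.63% were. DKK3 minus untransfected had 5 members called higher (GADD45A, BBC3, PLK2, PLK3 and CDKN1A), against 2.79% of 13722 genes, and 1 lower (DDB2), against 2.43%. Between the transfected arrays, DKK3 minus GFP had 0 members called higher, against 1.28% of 13368 genes, and 3 lower (DDB2, PHLDA3 and MDM4), against 1.63%. At 2-fold the members numbered 0, 1 (GADD45A, DKK3 minus untransfected) and 0 in those comparisons, against 0.278%, 0.299% and 0.232% of all genes. In all, 8 members were called in at least 1 comparison and 25 in none. The share of all genes called in at least 1 comparison was not computed, so these counts have no background beside them. With both plasmids 3 members were called higher (GADD45A, BBC3 and CDKN1A), against 1.29% of 13667 genes. The members not called for DKK3 minus GFP ran from -0.20 (ZMAT3) to 0.28 (GADD45A), with PLK2 at 0.23, AEN at 0.20 and FAS at 0.19 the next highest and FDXR at -0.18 the next lowest.

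The list as a whole was shifted little. Its median difference was 0.050 for GFP minus untransfected, with 21 of 33 members above 0, where the median of all genes was -0.0046 and 47.3% were above 0. It was 0.045 for DKK3 minus untransfected, with 19 members above 0, beside -0.0049 and 47.1% for all genes. For DKK3 minus GFP it was 0.014 with 18 members above 0, beside 0.00037 and 50.2%. Under median scaling in place of quantile normalization they were 0.095, -0.0016 and -0.039, so the sign in the comparisons with the DKK3 array depended on the scaling. The comparisons share arrays in pairs and are not independent of one another.

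**Figure D1:**
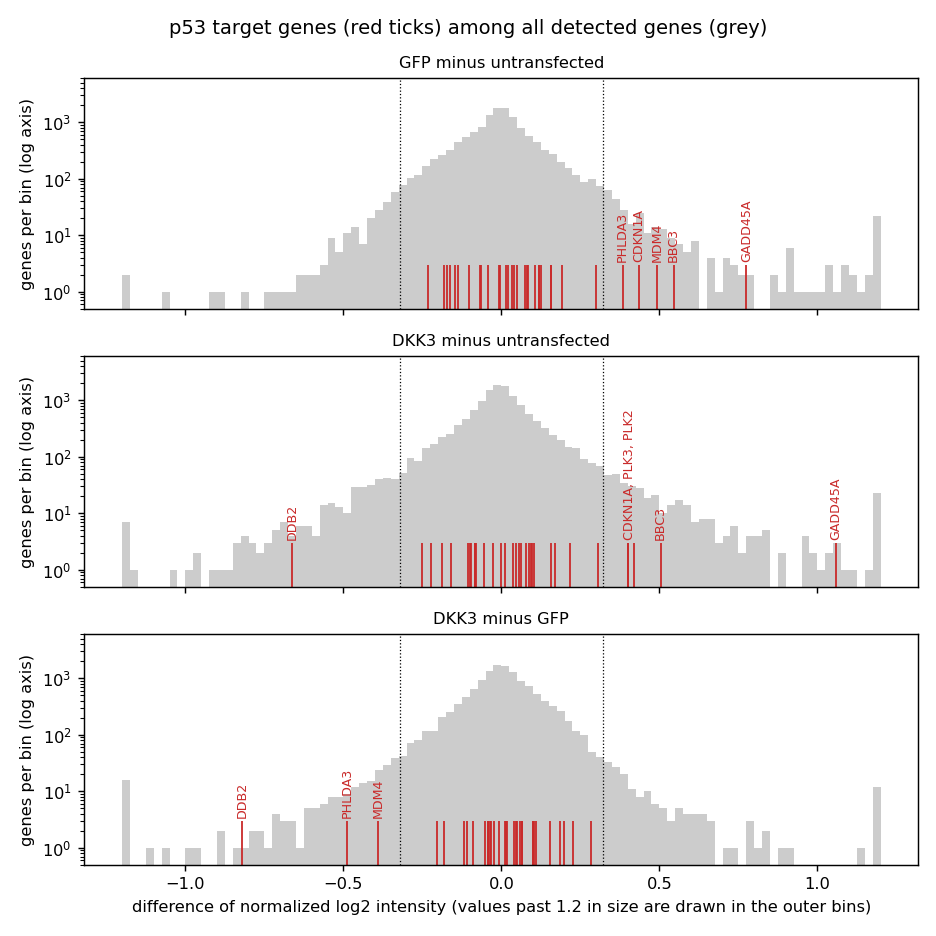
Difference of normalized log2 intensity (horizontal axis) for all detected genes (grey bars, genes per bin on a log axis) and for the 33 detected p53 target genes (red ticks) in the 3 comparisons, 1 array a group. Dotted lines mark the call at 0.32, and the members past them are named; GADD45A is the furthest to the right in both comparisons with the untransfected array, at 0.78 and 1.06, and DDB2 the furthest to the left on the DKK3 array, at -0.66 and -0.82.

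Against the untransfected array, the genes of cell cycle arrest and growth control were the role group with the highest median. The roles were set with earlier results of these data known, so this order describes the list only. Of 8 detected members, 7 were above 0 for GFP minus untransfected (median 0.17) and 8 for DKK3 minus untransfected (median 0.31). Called higher were 2 and 4 of them, where 2.29% and 2.79% of all genes were. DKK3 minus GFP gave a median of 0.062, and no member was called. The first 2 medians stayed above 0 under every scaling tried, and were 0.0057 and 0.25 with the authors' deposited values.

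GADD45A, a small acidic protein that senses stress and acts on MAP kinases and on the G2 to M transition, showed the largest difference of any member. Its spot read 1188 intensity units untransfected, 2172 with GFP and 2236 with DKK3 before normalization. Both transfected arrays were above the untransfected array, by 1.71-fold for GFP and 2.08-fold for DKK3, and DKK3 was 1.22-fold above GFP. GADD45A ranked 49 of 13693 genes from the highest for GFP minus untransfected and 28 of 13722 for DKK3 minus untransfected. The related genes GADD45B and GADD45G were at 0.16 and 0.021 for GFP minus untransfected, and at 0.22 and 0.062 for DKK3 minus untransfected, none of which was called.

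CDKN1A encodes p21, the inhibitor of cyclin-dependent kinases through which p53 halts the cell cycle. Its normalized log2 levels were 9.55 untransfected, 9.99 with GFP and 9.95 with DKK3. Both transfected arrays were higher than the untransfected one, at 1.35-fold and 1.32-fold, and they differed from each other by -0.036, less than the robust SD. The stress-responsive polo-like kinases PLK3 and PLK2 were also higher on the transfected arrays. PLK3 was at 7.43, 7.73 and 7.83, which put GFP 0.30 above the untransfected array, just under the call, and DKK3 0.40 above it. PLK2 was at 9.07, 9.27 and 9.49, a difference of 0.19 for GFP and 0.42 for DKK3 from the untransfected array and of 0.23 between the transfected arrays. For both kinases the DKK3 array was the highest and the untransfected array the lowest. BTG2, an antiproliferative cofactor of mRNA deadenylation, was at 0.050 and 0.098 against the untransfected array, and SFN, the 14-3-3 protein that holds cells in G2, at -0.0075 and 0.057, all near or within about 1 robust SD.

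**Figure D2:**
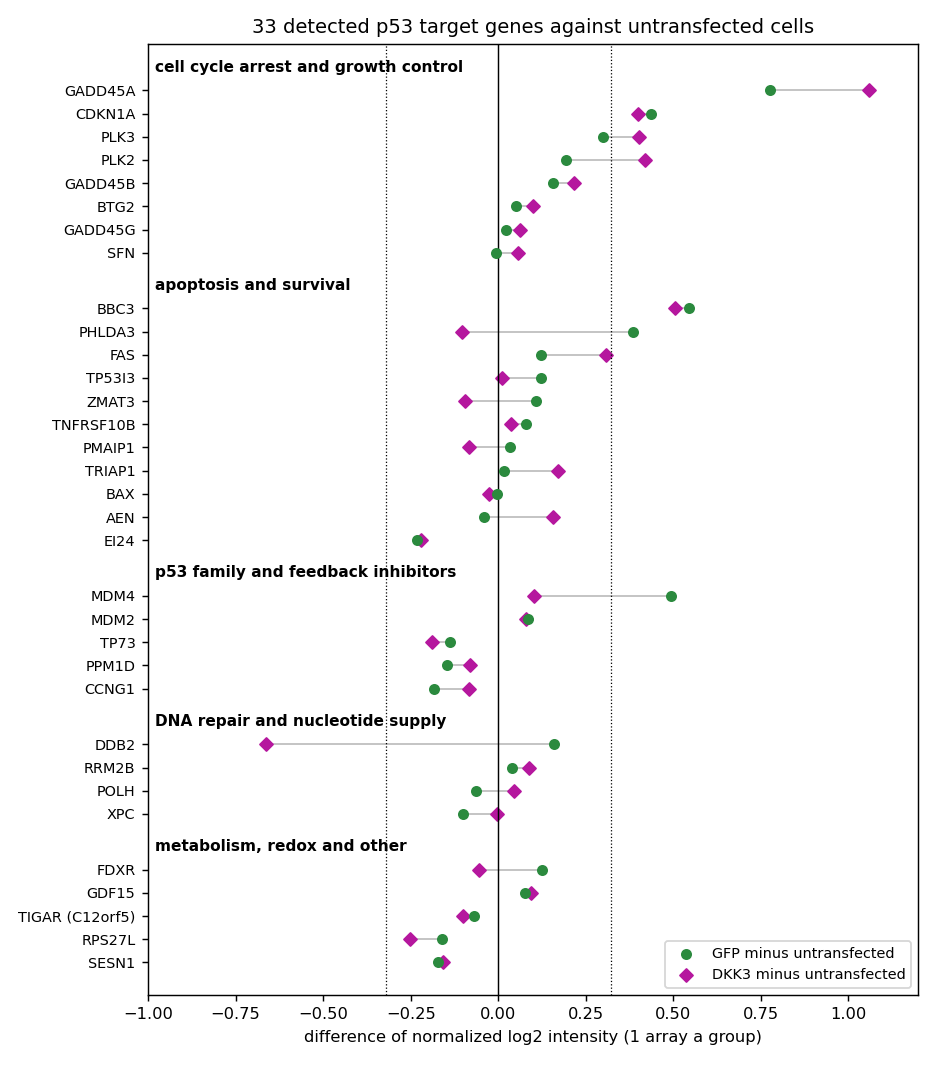
Difference of normalized log2 intensity from the untransfected array for each of the 33 detected p53 target genes, grouped by role, with GFP as green circles and DKK3 as magenta diamonds, 1 array each; both share the untransfected array. Dotted lines mark the call at 0.32; the cell cycle group lies mostly to the right of 0, from -0.0075 to 1.06, and DDB2, PHLDA3 and MDM4 have their points furthest apart.

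Among the genes of apoptosis and survival, BBC3 was called higher with both plasmids, PHLDA3 with GFP only, and the rest were not called against the untransfected array. Of 12 members 11 were detected, with medians of 0.081 for GFP minus untransfected (8 above 0), 0.011 for DKK3 minus untransfected (6 above 0) and -0.041 for DKK3 minus GFP (4 above 0). The second of these medians was below 0 under median scaling, at -0.034. Without print blocks 22 to 24, which hold 5 of the 11 genes, the 3 medians were 0.0055, 0.084 and 0.083, so that the sign of the last turned. BBC3 encodes PUMA, a BH3-only protein that neutralises the survival members of the BCL2 family. It was at 6.71 untransfected, 7.26 with GFP and 7.22 with DKK3 on the normalized log2 scale, and its spots of 88.5, 134 and 120 units were each above the detection limits of 40.8, 33.8 and 36.6. That is 1.46-fold with GFP and 1.42-fold with DKK3, with the transfected arrays -0.041 apart. BBC3 was printed in block 24, and of the 85 other detected spots in its block and row none was higher for GFP minus untransfected. Its 26 detected neighbours within 5 columns and 1 row had medians of 0.13 for GFP minus untransfected and 0.11 for DKK3 minus untransfected, and the highest of them stood above BBC3, at 0.56 and 0.74.

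PHLDA3, which competes with the kinase AKT for membrane lipids and so restrains it, stood highest on the GFP array. Its levels were 8.77 untransfected, 9.15 with GFP and 8.66 with DKK3. The GFP array was 0.38 above the untransfected one, and the DKK3 array was -0.10 from the untransfected and -0.49 from the GFP array. FAS, a death receptor, was at 8.17, 8.29 and 8.47, and its difference of 0.31 for DKK3 minus untransfected fell just short of the call. TNFRSF10B, the TRAIL receptor DR5, gave 0.081 and 0.037 against the untransfected array. Neither pore-forming BAX (-0.0040 and -0.026) nor PMAIP1, which encodes the BH3-only protein NOXA (0.034 and -0.084), moved by more than about 1 robust SD. AEN, an apoptosis-enhancing nuclease, was at -0.042 and 0.16, and TRIAP1, a mitochondrial protein that restrains apoptosis, at 0.015 and 0.17. For both, the DKK3 array was the highest. ZMAT3, an RNA-binding zinc finger protein, was at 0.11 and -0.095, and EI24, a protein of the endoplasmic reticulum, at -0.23 and -0.22, the lowest of the group. TP53I3, a quinone oxidoreductase, had probes that differed: 1 gave 0.27 and -0.010 and the other -0.025 and 0.033, so the gene's mean of 0.12 for GFP rests on 1 probe.

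Among the feedback inhibitors and the p53 family member TP73, MDM4 and MDM2 lay above 0 against the untransfected array, and CCNG1, PPM1D and TP73 below it. The 5 genes had medians of -0.14 for GFP minus untransfected, -0.081 for DKK3 minus untransfected and -0.0076 for DKK3 minus GFP, with 2 above 0 each time. MDM4, the partner of MDM2 that masks the activation domain of p53, was at 6.28 untransfected, 6.78 with GFP and 6.39 with DKK3. The GFP array was the high one, 0.49 above the untransfected array, and the DKK3 array was 0.10 above the untransfected and -0.39 from the GFP array. The MDM4 spot was dim, at 61.3, 88.0 and 59.4 units, and by its form the offset added before taking logs shrinks the differences of dim spots most. MDM2, the ubiquitin ligase that degrades p53 and is itself a p53 target, was at 8.81, 8.90 and 8.89, so the arrays were within 0.085 of each other. Cyclin G1 (CCNG1), an activator of MDM2, was at -0.18 for GFP on both of its probes, and for DKK3 at -0.16 on 1 probe and -0.0034 on the other. The phosphatase PPM1D, which switches off p53 and its activating kinases, was at -0.15 and -0.081, and TP73 at -0.14 and -0.19.

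DDB2, which recognises ultraviolet damage in chromatin for nucleotide excision repair, was the member furthest below 0. Its spot read 657 untransfected, 775 with GFP and 370 with DKK3, and its log2 levels were 9.39, 9.55 and 8.72. The DKK3 array was the low one, at 0.632 of the untransfected level and 0.566 of the GFP level, and DDB2 ranked 24 of 13368 genes from the lowest for DKK3 minus GFP. GFP minus untransfected was 0.16. The other repair genes were not called: XPC, the partner in damage recognition, was at -0.0024 for DKK3 minus untransfected. The translesion polymerase POLH was at 0.045 and the ribonucleotide reductase subunit RRM2B at 0.086. POLH (38.0 to 49.0 units) and RRM2B (46.3 to 52.0) were close to the detection limits, so a fall could hardly show in them. DDB2 alone of the 4 was printed in blocks 22 to 24, where many probes read low on the DKK3 array. The medians of these 4 genes were -0.012, 0.021 and 0.073 in the order used above.

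**Figure D3:**
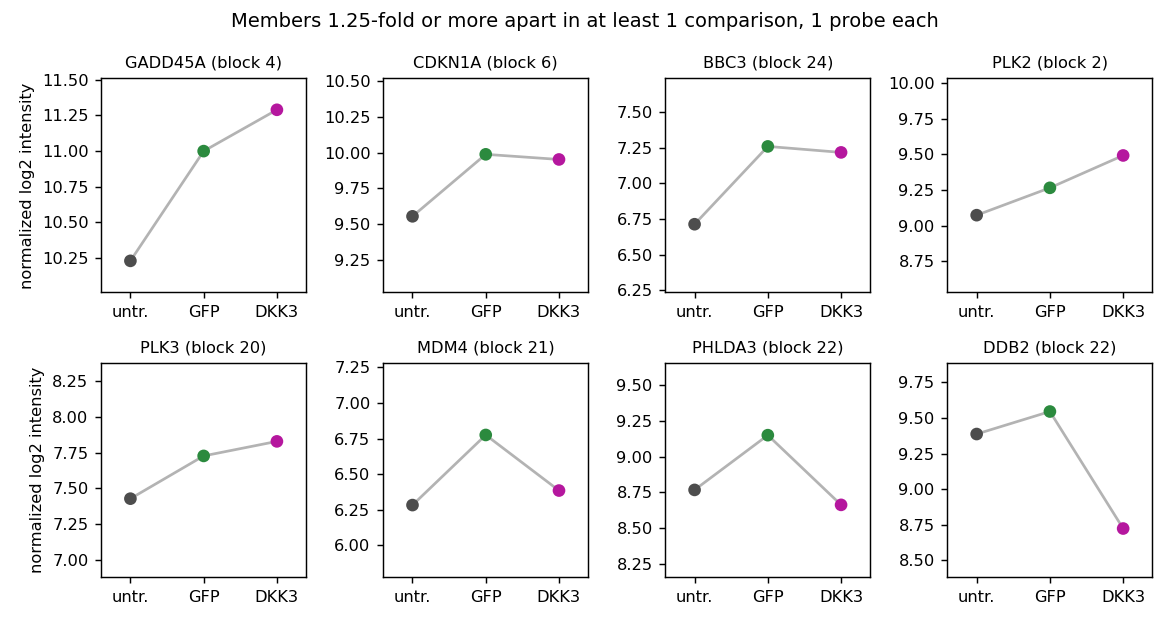
Normalized log2 intensity of the 8 members called in at least 1 comparison, on the untransfected (untr.), GFP and DKK3 arrays, 1 probe and 1 array per point; each panel spans 1.5 log2 units and grey lines only join the points of a gene. GADD45A, CDKN1A, BBC3, PLK2 and PLK3 are lowest on the untransfected array, MDM4 and PHLDA3 are highest on the GFP array, and DDB2 is lowest on the DKK3 array.

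Genes of metabolism, redox balance and growth signalling were near or below 0, with medians of -0.068, -0.10 and -0.032 over 5 genes, the first of which was 0.0035 without blocks 22 to 24, where SESN1 is printed. The sestrin SESN1, which restrains mTORC1, was at -0.17 for GFP minus untransfected and -0.16 for DKK3 minus untransfected, and the ribosomal-protein-like RPS27L at -0.16 and -0.25. Both were lower with either plasmid, and neither reached the call. TIGAR (listed as C12orf5), which lowers glycolysis, was at -0.068 and -0.10, and FDXR, the mitochondrial ferredoxin reductase, at 0.13 and -0.056. The stress cytokine GDF15 was dim on both of its probes, at 34.1 to 52.1 units, and the probes gave -0.021 and 0.17 for GFP minus untransfected.

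The place of a spot on the array moved with several of these values. In print blocks 22 to 24, 13.9% of detected probes were called lower for DKK3 minus untransfected, against 0.802% in the other blocks, and 8.21% against 0.839% for DKK3 minus GFP. 7 members have their probe there (DDB2, TNFRSF10B, PMAIP1, PHLDA3, ZMAT3, SESN1 and BBC3), where 12.5% of all usable probes were printed. DDB2 lies in row 1 of block 22, where the other 79 detected spots had a median DKK3 minus GFP of -0.12 and 5 of them were lower than DDB2. Its 16 nearest detected neighbours ran from -0.92 to -0.015 in that comparison, and the DDB2 value after subtracting block and row medians was -0.68. PHLDA3, in row 3 of the same block, had 3 of 79 spots of its block and row below it for DKK3 minus GFP, and stood at -0.39 after that subtraction. MDM4 lies in row 1 of block 21, where the other 74 spots had a median of 0.18 for GFP minus untransfected and 10 were higher than MDM4, and it stood at 0.316 after the subtraction, just short of the call. Leaving out blocks 22 to 24 drops these 7 members, BBC3, PHLDA3 and DDB2 among them, and changes no other member's value. The counts could therefore only fall. Over the 26 members left, 3 in place of 5 were called higher for GFP minus untransfected, beside 288 of 12120 genes. None in place of 1 was lower for DKK3 minus untransfected, beside 95 of 12148 genes. For DKK3 minus GFP 1 in place of 3 was lower, beside 91 of 11844 genes. The part of print position in the members' values was not tested. GADD45A, CDKN1A, PLK2 and PLK3 lie outside these blocks. GADD45A, in row 1 of block 4, had a median of 0.11 over the other 74 spots of its block and row for GFP minus untransfected and stood at 0.66 after the subtraction, and its highest near neighbour was at 1.06 for GFP and 2.24 for DKK3 minus untransfected.

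**Figure D4:**
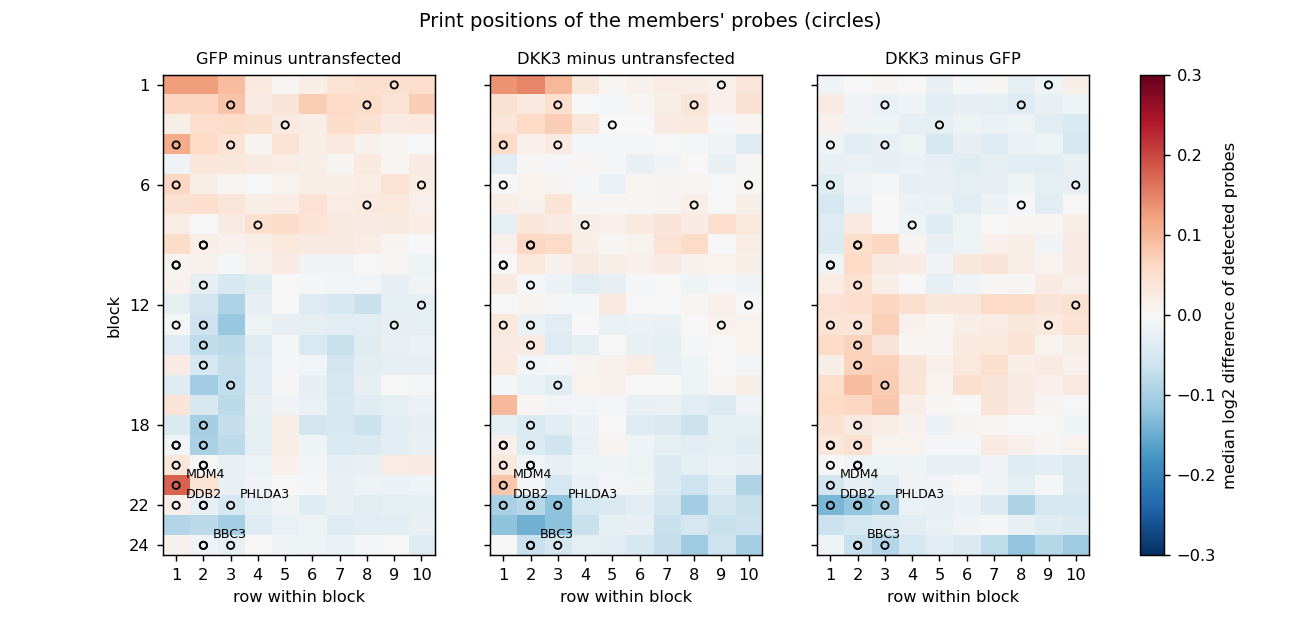
Print block (vertical axis) and row within the block (horizontal axis) of the members' probes (circles) in the 3 comparisons; colours give the median log2 difference of all detected probes printed in that block and row, from -0.3 (blue) to 0.3 (red). DDB2 and PHLDA3 lie in block 22, where the medians of their block and row were below 0 for DKK3 minus GFP (-0.14 and -0.10), and MDM4 in the row of block 21 with a median of 0.18 for GFP minus untransfected.

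The RefSeq promoter table (build GRCh38.p14) held a window of 300 bases, from 250 before to 50 after the transcription start, for 29 of the 34 members; GADD45A, PHLDA3, RRM2B, TNFRSF10B and TP53INP1 are named only. The windows of CDKN1A and BBC3 are shown because these genes were higher with both plasmids. The CDKN1A window (chr6:36678464-36678763, plus strand) held 4 matches to the GC box GGGCGG on the strand shown, in capitals, of which the last 2 overlap each other. The BBC3 window (chr19:47232618-47232917, minus strand) held 1 match to CCAAT, on the strand opposite to the one shown, in capitals. Neither window held an exact match to the p53 half-site, a ten-letter consensus of which p53 binds a pair. Sequence outside the windows was not searched.
CDKN1A: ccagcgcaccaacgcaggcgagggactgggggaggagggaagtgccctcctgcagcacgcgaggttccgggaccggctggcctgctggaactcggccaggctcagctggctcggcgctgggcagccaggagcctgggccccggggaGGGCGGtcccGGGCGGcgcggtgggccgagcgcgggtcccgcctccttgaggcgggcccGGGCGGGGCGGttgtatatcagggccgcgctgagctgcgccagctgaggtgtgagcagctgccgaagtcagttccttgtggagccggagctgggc
BBC3: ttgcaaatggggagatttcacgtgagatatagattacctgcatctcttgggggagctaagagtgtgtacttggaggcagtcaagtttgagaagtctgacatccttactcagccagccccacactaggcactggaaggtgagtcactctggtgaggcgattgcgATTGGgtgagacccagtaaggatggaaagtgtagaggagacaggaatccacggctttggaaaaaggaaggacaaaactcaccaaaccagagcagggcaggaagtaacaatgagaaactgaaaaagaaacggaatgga

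Searched on both strands, the half-site was present in 5 of the 29 windows (17.2%), against 6.54% of 27305 promoters in the table. No member window, and 0.0293% of all promoters, held a pair of half-sites with a spacer of up to 13 bases. At that rate the absence of a pair from 29 windows says little. Only exact matches within the 300 bases were counted, so sites with a changed letter or further from the start were not assessed. GGGCGG was found in 22 member windows (75.9%) against 44.6% of all promoters, and CCAAT in 14 (48.3%) against 35.7%. TATAAA was found in 2 member windows and in 3264 of all promoters, the C/EBP-ATF element TTNCATCA in 2 against 3.67% and the cyclic AMP element TGACGTCA in 1 against 1.98%. These matches describe the letters of the windows and not binding. The stretches of 40 bases around the half-sites are shown because they carry the letters of the p53 motif, in capitals. AEN is at chr15:88621291-88621330 (plus), EI24 at chr11:125569452-125569491 (plus), FDXR at chr17:74872981-74873020 (minus), PLK2 at chr5:58460194-58460233 (minus) and RPS27L at chr15:63157512-63157551 (minus). The half-site begins at -34 from the transcription start in AEN, -10 in EI24, -11 in FDXR, -132 in PLK2 and -59 in RPS27L. In RPS27L it overlaps a GGGCGG match on the other strand.
AEN: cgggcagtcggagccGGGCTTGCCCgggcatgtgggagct
EI24: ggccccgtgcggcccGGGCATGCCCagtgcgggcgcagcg
FDXR: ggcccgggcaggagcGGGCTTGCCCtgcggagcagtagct
PLK2: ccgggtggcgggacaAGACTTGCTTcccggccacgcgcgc
RPS27L: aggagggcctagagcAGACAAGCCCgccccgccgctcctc

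These 5 genes did not move together. Against the untransfected array PLK2 was at 0.19 for GFP and 0.42 for DKK3, FDXR at 0.13 and -0.056, AEN at -0.042 and 0.16, RPS27L at -0.16 and -0.25 and EI24 at -0.23 and -0.22.

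The p53 target genes were set beside 5 other lists of the same pathway and of stress responses that share genes with it. A second list of p53 targets had 43 of 50 genes detected. Its medians were 0.029, 0.050 and 0.027 for GFP minus untransfected, DKK3 minus untransfected and DKK3 minus GFP. The last of these turned to -0.029 under median scaling. The list had 3 genes called higher and 0 lower for GFP minus untransfected, where 2.29% and 1.63% of all genes were. For DKK3 minus untransfected 4 were called higher and 1 lower, against 2.79% and 2.43%. DKK3 minus GFP had 0 and 0, against 1.28% and 1.63%. The 3 called higher with GFP were ISG15, a ubiquitin-like protein (1.27), TRIM22, an antiviral ubiquitin ligase (0.71), and the TRAIL receptor TNFRSF10A (0.49). For DKK3 minus untransfected they were at 0.97, 0.67 and 0.55. ISG15 and TRIM22 are also interferon-stimulated genes. Between the transfected arrays ISG15 was at -0.29, the sestrin SESN2 at 0.26 and KIAA0247, a membrane protein gene printed in block 22, at -0.24.

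The largest shift among the lists was in interferon-stimulated genes. Of these, 10 of 10 were detected and called higher with either plasmid, where 2.29% and 2.79% of all genes were. Their medians were 1.39 for GFP minus untransfected, 1.13 for DKK3 minus untransfected and -0.19 for DKK3 minus GFP. IFIT1, which binds foreign RNA, was at 2.47, 2.08 and -0.39, on a spot of block 24. IFIT3, its partner, was at 2.01, 1.83 and -0.18, and IFI27 at 1.68, 1.39 and -0.29. The RNA-sensing synthetase OAS1 was at -0.39 for DKK3 minus GFP, on a spot of block 22. IFIT1 and OAS1 were the 2 genes of this list called lower in that comparison, where 1.63% of all genes were. Both lie in blocks 22 to 24. The part of this response in the p53 target values was not tested. FAS and PMAIP1, which interferon signalling can also induce, were at 0.12 and 0.034 for GFP minus untransfected and at 0.31 and -0.084 for DKK3 minus untransfected.

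The stress genes of ATF4 and CHOP, factors of the integrated stress response that also act on GADD45A, BBC3 and TNFRSF10B, had medians of 0.10, 0.28 and 0.20 over 9 detected genes. In each comparison 6 of them were above 0. Called higher and lower were 3 and 0, 4 and 1, and 2 and 0 genes in that order. Of all genes 2.29% and 1.63%, 2.79% and 2.43%, and 1.28% and 1.63% were called higher and lower. DDIT3, which encodes CHOP, was at 274 units untransfected, 435 with GFP and 499 with DKK3, and its differences were 0.57, 0.96 and 0.39. It had the same order of arrays as GADD45A, with DKK3 highest and untransfected lowest. PPP1R15A, the phosphatase subunit GADD34, was at 0.54, 0.59 and 0.051, ATF3 at 0.33, 0.53 and 0.20, and the pseudokinase TRIB3 at 0.14, 0.47 and 0.33. ASNS, asparagine synthetase, was at -0.29, -0.019 and 0.27. DDIT4 was below 0 throughout, at -0.15, -0.33 and -0.18. ATF4 itself was at -0.12, -0.14 and -0.019, from probes that differed. Its bright probe, in block 24, gave -0.33 and -0.37 against the untransfected array, and its dim probe 0.086 and 0.095. The part of these factors in the values of the p53 target genes was not tested.

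Genes that p21 represses through the DREAM complex, mostly of mitosis, lay below 0 on the transfected arrays. For GFP minus untransfected 3 of 23 detected genes were above 0 (median -0.12). Of these 23, 0 were called higher and 5 lower, against 2.29% and 1.63% of all genes. For DKK3 minus untransfected 5 were above 0 (median -0.092), with 1 called higher and 2 lower, against 2.79% and 2.43%. For DKK3 minus GFP 17 were above 0 and the median was 0.051, which turned to -0.059 under median scaling. The mitotic kinesin KIF20A was at -0.53, -0.26 and 0.27, the kinesin KIF23 at -0.41, -0.30 and 0.11, and the spindle midzone protein PRC1 at -0.38, -0.22 and 0.16. CHAF1A, a histone chaperone subunit printed in block 24, was at -0.21, -0.59 and -0.38, and the checkpoint kinase BUB1 at 0.12, 0.38 and 0.26. The 2 genes called lower for DKK3 minus untransfected were CHAF1A and the cyclin CCNB1. CCNB1 was at -0.35 in that comparison, from a probe in block 24 at -0.52 and a probe in block 4 at -0.18. CDKN1A, for comparison, was at 0.44 and 0.40 against the untransfected array.

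**Figure D5:**
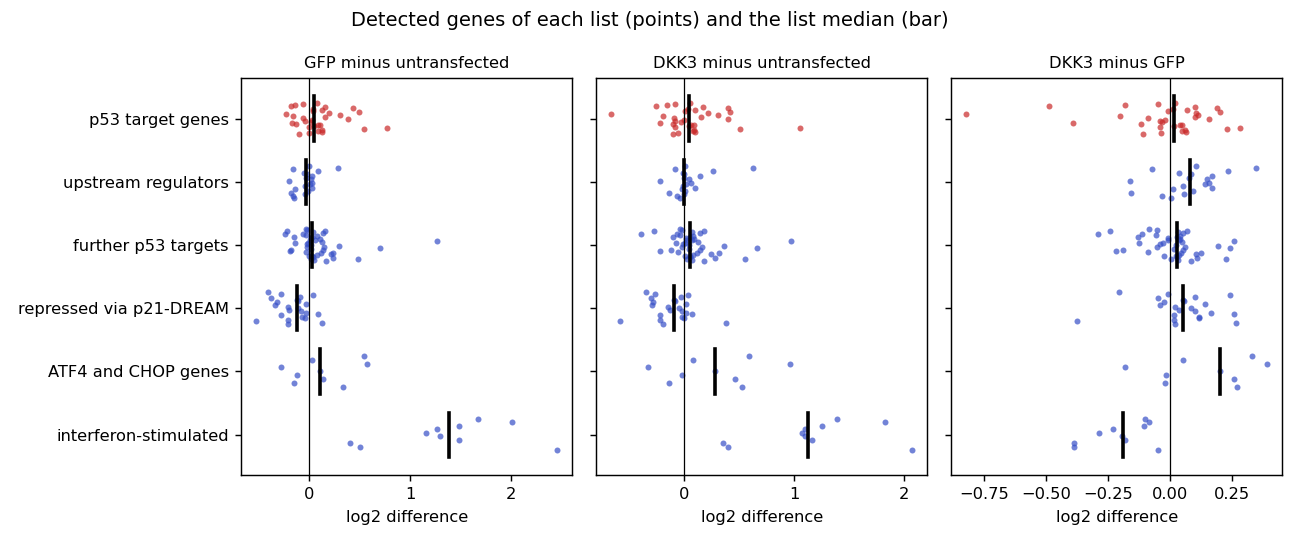
Log2 difference (horizontal axis, different range in each panel) of every detected gene of the p53 target genes (red) and of the 5 other lists (blue) in the 3 comparisons, 1 array a group; black bars are list medians, and points are spread vertically only to separate them. The interferon-stimulated genes lie furthest from 0, with medians of 1.39 and 1.13 against the untransfected array, and the p53 target genes have medians of 0.050, 0.045 and 0.014.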

How the data were processed

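The data are 3 one-colour oligonucleotide arrays (dye Cy5), 1 each of untransfected, GFP and DKK3 cells. Each deposited scanner file lists 27456 spots with their median intensity, merged over several gains, per the file headers; no source used here names the scanner software. A second deposited table holds the authors' processed intensity values on a linear scale. Its scaling is not stated, and it was used only as an alternative. Every column of per-sample values that was read belongs to 1 of the 3 samples, and a background column of the scanner files was not subtracted. The spot intensity deposited by the authors was corrected by normexp (offset 50, limma 3.58.1, R 4.3.3), stripped of control spots (2680 of them blanks) and of 6 faulty gene spots, quantile normalized between arrays and taken to log2; these steps were tested on simulated data. Probes count as detected above the mean plus 2 SD of the blanks, and a comparison used probes detected on at least 1 of its arrays. Of the positive controls printed repeatedly, 1 varied by 5.88% to 6.11% (coefficient of variation) within the arrays and the other by 8.82% to 11.9%, and precision is limited by having 1 array a group. Gene names come from the platform annotation (20231 probes with 1 symbol, 0 with several, 4223 with none), updated through the RefSeq gene table of GRCh38.p14; 1 member was matched through a synonym. Detected probes of a gene were averaged. The members, their roles and the other lists were chosen with earlier results of these data known. By rule, values on every array are given for members called in any comparison, at least the 2 members of each role with the largest GFP minus untransfected difference are named, and from each other list the 3 genes with the largest size of GFP minus untransfected and of DKK3 minus GFP; differences of the other members are given so that each is accounted for. Tables and figures were made in Python 3.11.15 with numpy 2.4.6, pandas 2.3.3 and matplotlib 3.10.9. The alternatives were no background correction, an offset of 16, median scaling, cyclic loess, other filters on dim probes, the authors' deposited values, the array without blocks 22 to 24, block and row medians subtracted and the brightest probe of each gene; 1 more, the authors' values with the median difference of all detected probes subtracted, was chosen after seeing the data.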

Additional observations from a re-analysis of the deposited data

How the results depend on the processing

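With 1 array a group no replicate could be left out, and no paired analysis was possible because each group has 1 array. The 8 called members kept the direction of every called value under each of the 11 alternatives that measured them (BBC3, DDB2 and PHLDA3 have no value without blocks 22 to 24); of their recomputed differences 206 moved by less than 1 robust SD of all genes, 49 by more and 0 of the called ones reversed. For GFP minus untransfected, the authors' deposited values gave a list median of -0.088, beside -0.23 for all genes; 3 members were then called higher and 8 lower, and 4 were lower once the median of all detected probes was subtracted. For DKK3 minus untransfected the authors' values gave a list median of -0.17 (all genes -0.26) and 8 members lower, 3 after the subtraction; an offset of 16 gave 2 lower. For DKK3 minus GFP they gave 2 higher, with and without the subtraction. Without blocks 22 to 24, 3 were higher for GFP minus untransfected, 0 lower for DKK3 minus untransfected and 1 lower for DKK3 minus GFP. These counts fell only because the called members printed there drop out. MDM4 varied most, from 0.316 to 1.17 for GFP minus untransfected. GADD45A ranged from 0.62 to 0.84 and from 0.87 to 1.13 against the untransfected array, CDKN1A from 0.29 to 0.51 and 0.25 to 0.51, BBC3 from 0.55 to 0.93 and 0.48 to 0.90, and DDB2 from -0.95 to -0.68 for DKK3 minus GFP. Over all genes the calls (higher, lower) were 314 and 223, 383 and 334, and 171 and 218 as reported. They were 503 and 407, 564 and 497, and 306 and 346 with an offset of 16, and 446 and 137, 280 and 500, and 88 and 531 with median scaling. The authors' values gave 279 and 4513, 361 and 4972, and 791 and 1182, and after the subtraction 969 and 1406 and 1186 and 1663 in the comparisons with the untransfected array. Without blocks 22 to 24 the DKK3 array had 95 and 91 lower calls, and subtracting block and row medians left GFP minus untransfected with 148. Calls were lost by CDKN1A (both), PHLDA3 (0.24 for GFP) and PLK2 (0.26 for DKK3) against the untransfected array with the authors' values, and by MDM4 (0.316 for GFP) with block and row medians subtracted. The causes were not tested. Dim members such as MDM4, GDF15 and POLH lie close to the blanks, which limits their values most.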

Other observations

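Genes that act upstream of p53 or with it, of which 20 of 22 were detected, had medians of -0.029 for GFP minus untransfected, -0.00072 for DKK3 minus untransfected and 0.079 for DKK3 minus GFP, with 7, 10 and 16 above 0. 1 was called, CHEK1, the checkpoint kinase of replication stress. It was called higher for DKK3 minus untransfected and DKK3 minus GFP, where 2.79% and 1.28% of all genes were. Its spot read 182 units untransfected, 227 with GFP and 264 with DKK3, and its differences were 0.28, 0.63 and 0.35. The DKK3 array was thus the highest and the untransfected array the lowest, as for GADD45A, PLK2 and PLK3. CHEK2, the checkpoint kinase that phosphorylates p53 after double-strand breaks, was at -0.20, -0.063 and 0.14, lower with GFP on both of its probes. The deacetylase SIRT1 was at -0.18, -0.0091 and 0.17, and TP53BP2, a cofactor that steers p53 to apoptosis genes, at 0.029, 0.26 and 0.23. Of genes picked after their values were seen, the damage kinases ATM and ATR were within 0.047 of 0 in all 3 comparisons. ATM lay at the detection limits, at 33.7 to 42.3 units on the probe used, so a change could hardly show. The probes of ATR differed, at -0.012 and 0.11 for DKK3 minus untransfected. TP63, the p53 relative of squamous epithelium, was at -0.17, -0.010 and 0.16, and CDKN2A, which encodes the MDM2 antagonist ARF, at -0.14, -0.038 and 0.10.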
